A study of Rattus norvegicus with 21 samples.

Results

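The genes described here are 7 antioxidant defence genes of the rat brain, chosen by name: Nfe2l2 (ENSRNOG00000001548), Hmox1 (ENSRNOG00000014117), Nqo1 (ENSRNOG00000012772), Gclc (ENSRNOG00000006302), Sod1 (ENSRNOG00000002115), Sod2 (ENSRNOG00000019048) and Cat (ENSRNOG00000008364). They were found by these Ensembl gene IDs, and all 7 were present among the 30560 IDs of the deposited table and passed the filter on low values in every comparison. RNA was sequenced from hippocampus and cortex of wild-type male SD rats, 4 weeks old on arrival and acclimated for 2 weeks before the study. Exposed rats climbed in a decompression chamber to a simulated 28000 ft, with a stop at 10000 ft on the way, stayed at the top for 5 min and came back down, and did so 6 times with 3 days between flights. Brains were collected 24 h or 48 h later, where the time counts from the last of these hypobaric hypoxia exposures, and control rats stayed at normal oxygen. For each tissue there were 3 libraries at 24 h, 3 at 48 h and 4 from controls, 20 in all. Of 12 rats, 8 were exposed, of which 1 died, 4 were taken at 24 h and 3 at 48 h, and 4 were controls, so in the control and 48 h groups each rat gave a hippocampus and a cortex library. The labels do not tie a replicate number to the same rat in both tissues, and comparisons between tissues therefore treat libraries that share rats as independent unless a replicate block is named. The control rats are described as kept at normal oxygen, with no mention of a sham flight in the chamber.

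Cells meet reactive oxygen with a layered defence. Nfe2l2 encodes NRF2, a transcription factor held low by KEAP1 in resting cells, which on oxidative or electrophilic stress enters the nucleus and binds antioxidant response elements in its target genes. Hmox1 encodes heme oxygenase, which breaks down heme and is among the most inducible of these targets, Nqo1 encodes a quinone reductase, and Gclc encodes the catalytic subunit of the enzyme that limits glutathione synthesis. Sod1 and Sod2 encode the superoxide dismutases of the cytosol and of the mitochondrial matrix, which turn superoxide into hydrogen peroxide, and Cat encodes catalase, which breaks hydrogen peroxide down. In brain, low oxygen and the return of oxygen are both known to bring such enzymes into play, and astrocytes carry much of the NRF2 response.

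The letters upstream of the genes are shown first for the superoxide dismutases Sod1 and Sod2 and for Nqo1, a standard NRF2 target. None of the 7 genes passed the main test in any exposure or tissue comparison below, and no link between these letters and the values was tested. The sequences are from RefSeq (build GRCr8), which gave a window for 6 of the 7 genes by symbol (Hmox1 is named only), and each runs 5′ to 3′ on the gene's strand from 250 bases upstream to the base before the start. Capitals mark matches, on either strand, to the antioxidant response element core TGACNNNGC, the hypoxia response element core ACGTG, the TATA box core TATAAA and the CCAAT box core CCAAT.
Sod1 (chr11:42942573-42942741, plus strand, the 169 bases of the window outside the annotated gene): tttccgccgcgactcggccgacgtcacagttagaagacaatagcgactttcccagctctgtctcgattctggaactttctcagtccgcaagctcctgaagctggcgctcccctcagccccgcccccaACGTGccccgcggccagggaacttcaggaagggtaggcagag
Sod2 (chr1:50050169-50050418, minus strand): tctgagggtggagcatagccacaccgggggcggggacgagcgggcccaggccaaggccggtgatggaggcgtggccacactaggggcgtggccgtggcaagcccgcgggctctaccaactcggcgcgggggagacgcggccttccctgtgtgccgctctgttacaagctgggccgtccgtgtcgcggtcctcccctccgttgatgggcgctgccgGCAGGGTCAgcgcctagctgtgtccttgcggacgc
Nqo1 (chr19:52220268-52220517, minus strand): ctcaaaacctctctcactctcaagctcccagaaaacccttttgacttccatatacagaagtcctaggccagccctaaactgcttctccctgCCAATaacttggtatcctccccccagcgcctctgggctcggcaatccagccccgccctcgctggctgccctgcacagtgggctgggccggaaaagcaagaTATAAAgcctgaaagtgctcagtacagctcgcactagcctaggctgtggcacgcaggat
Sod2 was the gene with a match to TGACNNNGC, which reads GCAGGGTCA on the printed strand of the gene because the match itself lies on the opposite strand, and starting 35 bases upstream, and 10.1% of 33465 rat windows of this length hold such a match. The ACGTG of Sod1 starts 123 bases upstream, and 16.6% of windows hold one. TATAAA starts 59 bases upstream in Nqo1, 28 in Sod1 and 244 in Gclc (12.9% of windows), and the matches of Sod1 and Gclc lie outside the letters printed. CCAAT was found 4 times in the window of Cat, once in that of Nqo1 and once in that of Sod1, and the one of Sod1 lies outside the letters printed. At least 1 match was held by 34% of windows, and the share with 4 was not computed. No such match was found in the window of Nfe2l2. The Gclc window had the highest CpG content of the 6, with an observed-over-expected ratio of 1.27, above 99.7% of windows. None of these matches is shown to be a binding site, and a window without a match says nothing of elements elsewhere.

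Values below are normalized read counts, that is, reads in a gene divided by a factor for the library. Reads in genes numbered 11214566 to 19304803 per library, apart from hippocampus control 1 with 4654096, which had reads in 15134 genes against 18502 to 19688 in the others. On a scale built from genes at least 4-fold apart between the tissues, with cortex at 0 and hippocampus at 1, the positions were 0.3 for hippocampus control 2, 0.461 for hippocampus 24 h replicate 2 and 0.411 for cortex control 3. These 3, hippocampus control 1 and cortex 24 h replicate 3 (position 0.265) had either a position over 0.3 from their own tissue's end or an estimated weight under 0.25 in the fit of their tissue, and are called doubted libraries here. Results are given with and without these 5, a choice made after seeing the data. Since the position scale is built from genes that differ between the tissues, leaving out libraries by position favours larger differences between the tissues, and such values are no independent evidence of them. The deposited table names no genes, so marker genes of the tissues and of brain cell types, and the other genes of the pathway, were not analysed here and the tissue labels were not checked against markers.

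**Figure D1:**
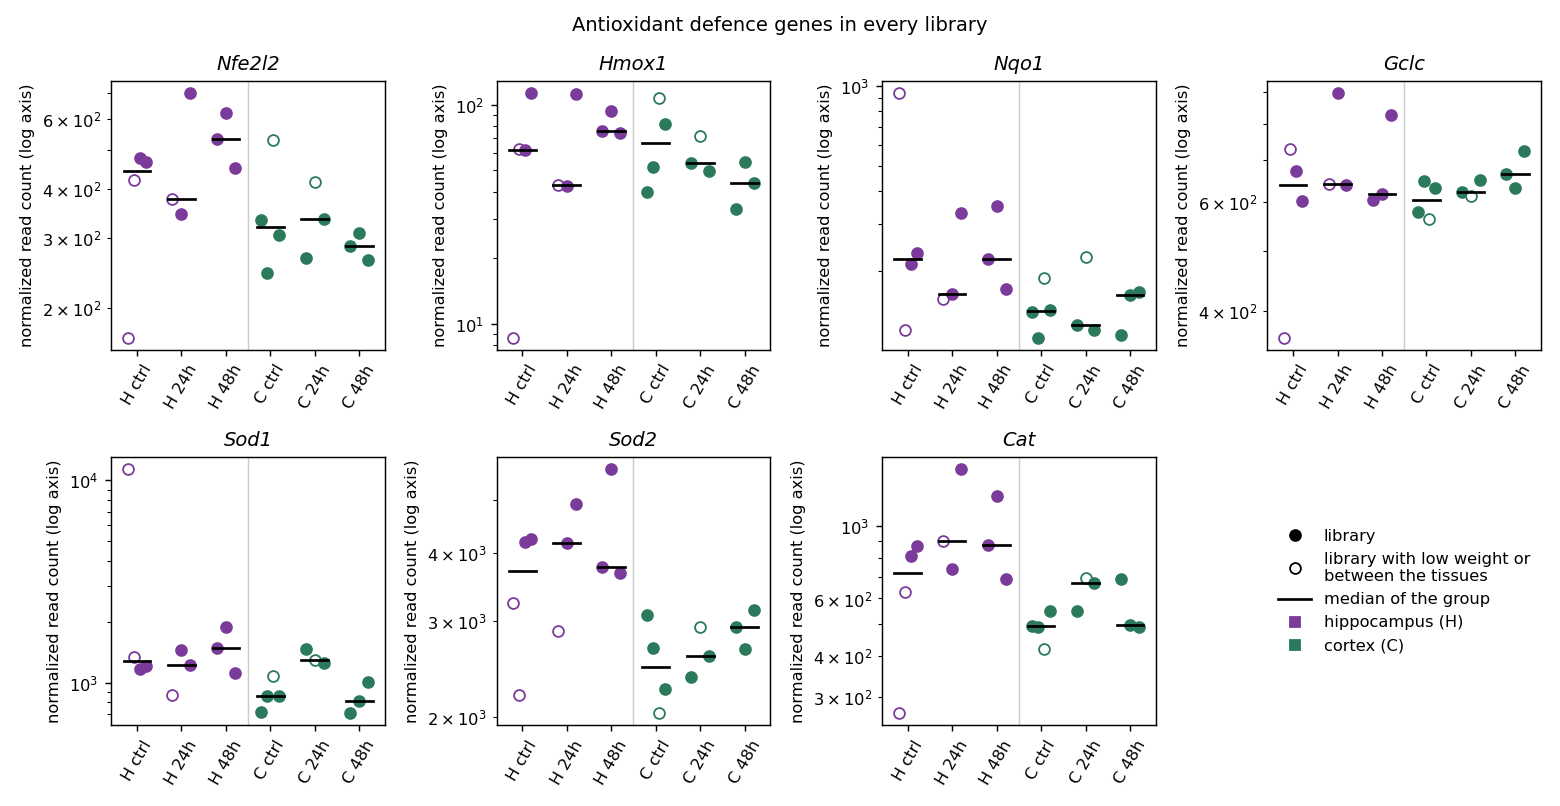
Normalized read counts (log axis, scaled to each gene) of the 7 genes in each of the 20 libraries, with hippocampus (H) left of cortex (C) and control, 24 h and 48 h in order. Open circles are the 5 doubted libraries and bars are group medians. In cortex the 3 Sod1 values at 24 h (1248 to 1472) lie above the 4 controls and the 3 at 48 h, and hippocampus control 1 lies far from its group for Sod1 (11384) and Nqo1 (936).

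In cortex, Sod1 averaged 1337 ± 119 normalized reads (SD, n = 3) at 24 h against 875 ± 148 (SD, n = 4) in controls, and the difference did not pass the threshold after adjustment over all genes. At 48 h Sod1 stood at 840.2 ± 150 (SD, n = 3), near the controls. The NRF2 gene Nfe2l2 and its targets Hmox1, Nqo1 and Gclc differed from controls by at most 0.59 on the log2 scale at either time, and the intervals of all 4 included 0. In limma, 0 of 7 genes passed an adjusted p of 0.05 at 24 h, at 48 h or between 48 h and 24 h, as 0% of all 14783 genes did in each of these comparisons. At an unadjusted p under 0.05 the numbers were 2, 0 and 1 of 7, against 7.96%, 3.48% and 11.3% of all genes. On the recovered reads edgeR called 0 of 7 genes and 0% of all genes in each, and DESeq2 called 0 of 7 in each, against 0.183%, 0.00893% and 0.648% of all genes. A lower level in such bulk tissue cannot be told apart from fewer cells that express the gene.

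Sod1, the cytosolic superoxide dismutase, read 716, 854, 1074 and 858 in control cortex 1 to 4, then 1472, 1290 and 1248 in 24 h replicates 2, 3 and 4, and 706, 812 and 1003 in 48 h replicates 1, 2 and 3. The 3 libraries at 24 h all lay above the 4 controls and above the 3 libraries at 48 h, while the ranges of 48 h and control overlapped. Among all genes tested, 4.21% had 24 h values above every control, and 9.19% were apart in either direction. The log2 change at 24 h over control was 0.62 (SE 0.168, 95% interval 0.25 to 1.00), a 1.54-fold difference, with a limma adjusted p of 0.602. It was 0.75 without the doubted cortex libraries (limma adjusted p = 0.193), and 0.53 to 0.72 when single libraries were left out, so its direction did not rest on 1 library. edgeR gave an adjusted p of 0.604 and DESeq2 one of 0.123.

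Between 48 h and 24 h the log2 change of Sod1 was -0.68 (SE 0.179, 95% interval -1.08 to -0.28, limma adjusted p = 0.372), with all 3 values at 48 h below all 3 at 24 h. Lower without overlap was true of 10.1% of all genes in this comparison. With library weights, added after seeing the data, the change was -0.76 and passed (limma adjusted p = 0.00944), in a fit that called 9.03% of all genes. Without the doubted libraries it was -0.70 (limma adjusted p = 0.16). The comparisons of 24 h with control and of 48 h with 24 h share the same 24 h libraries, so both rest on those 3 values. Sod1 at 48 h over control had a log2 change of -0.06 (95% interval -0.43 to 0.31).

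Sod2, the mitochondrial dismutase, read 3082, 2679, 2033 and 2250.4 in control cortex, 2367, 2926 and 2585 at 24 h, and 2922, 2661 and 3147 at 48 h. The 3 groups overlapped, with a log2 change of 0.08 (95% interval -0.28 to 0.44) at 24 h and 0.23 (95% interval -0.13 to 0.59) at 48 h over control. Sod1 and Sod2, which act on the same substrate in different compartments, thus had point values of 0.62 and 0.08 at 24 h, a difference between genes that was not tested. Cat, which removes the hydrogen peroxide that both enzymes make, read 495, 492, 421 and 549.6 in controls, 549.1, 695 and 668 at 24 h, and 689, 498 and 491 at 48 h. At 24 h the lowest Cat value lay just under the highest control, and the log2 change was 0.38 (95% interval 0.02 to 0.74, limma adjusted p = 0.612). Without the doubted libraries it was 0.24 (95% interval -0.14 to 0.63), and at 48 h over control it was 0.18 (95% interval -0.18 to 0.54).

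Nfe2l2 read 333, 245, 533 and 306 in control cortex, 267, 416 and 336 at 24 h, and 287, 309.7 and 264 at 48 h. Its highest control and its highest 24 h value came from the 2 doubted cortex libraries, control 3 and 24 h replicate 3. The log2 change was -0.02 (95% interval -0.58 to 0.53) at 24 h and -0.25 (95% interval -0.81 to 0.31) at 48 h over control, and without the doubted libraries it was 0.03 and -0.03. Hmox1, the inducible heme oxygenase, read 39.7, 52.0, 107 and 81.8 in controls, 54.0, 71.6 and 49.8 at 24 h, and 33.3, 54.9 and 43.6 at 48 h. All exposed values lay within or below the range of the controls, and cortex control 3 was again the highest. Its log2 change over control was -0.17 (95% interval -0.94 to 0.60) at 24 h and -0.59 (95% interval -1.36 to 0.18) at 48 h, and the value at 48 h was -0.35 without the doubted libraries.

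Nqo1, the quinone reductase, read 140.2, 112, 188 and 143 in control cortex, 126, 226 and 119.6 at 24 h, and 115, 162 and 167 at 48 h. The 226 at 24 h was again from the doubted 24 h replicate 3, and the log2 changes over control were 0.07 (95% interval -0.53 to 0.66) at 24 h and 0.03 (95% interval -0.57 to 0.62) at 48 h. Gclc, the glutathione synthesis gene, was the steadiest of the 7, with 577, 648, 563 and 631 in controls, 622, 611 and 651 at 24 h, and 665, 630.2 and 723 at 48 h. Its pooled SD within cortex groups was 0.0873 on the log2 scale, and 1.19% of the 12374 genes averaging 50 or more had a smaller one. That gave the narrowest intervals of the 7 genes, a log2 change of 0.06 (95% interval -0.19 to 0.30) at 24 h and 0.15 (95% interval -0.09 to 0.40) at 48 h over control. A change of Gclc in cortex beyond 1.23-fold up at 24 h, or beyond 1.32-fold up at 48 h, lay outside these intervals.

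**Figure D2:**
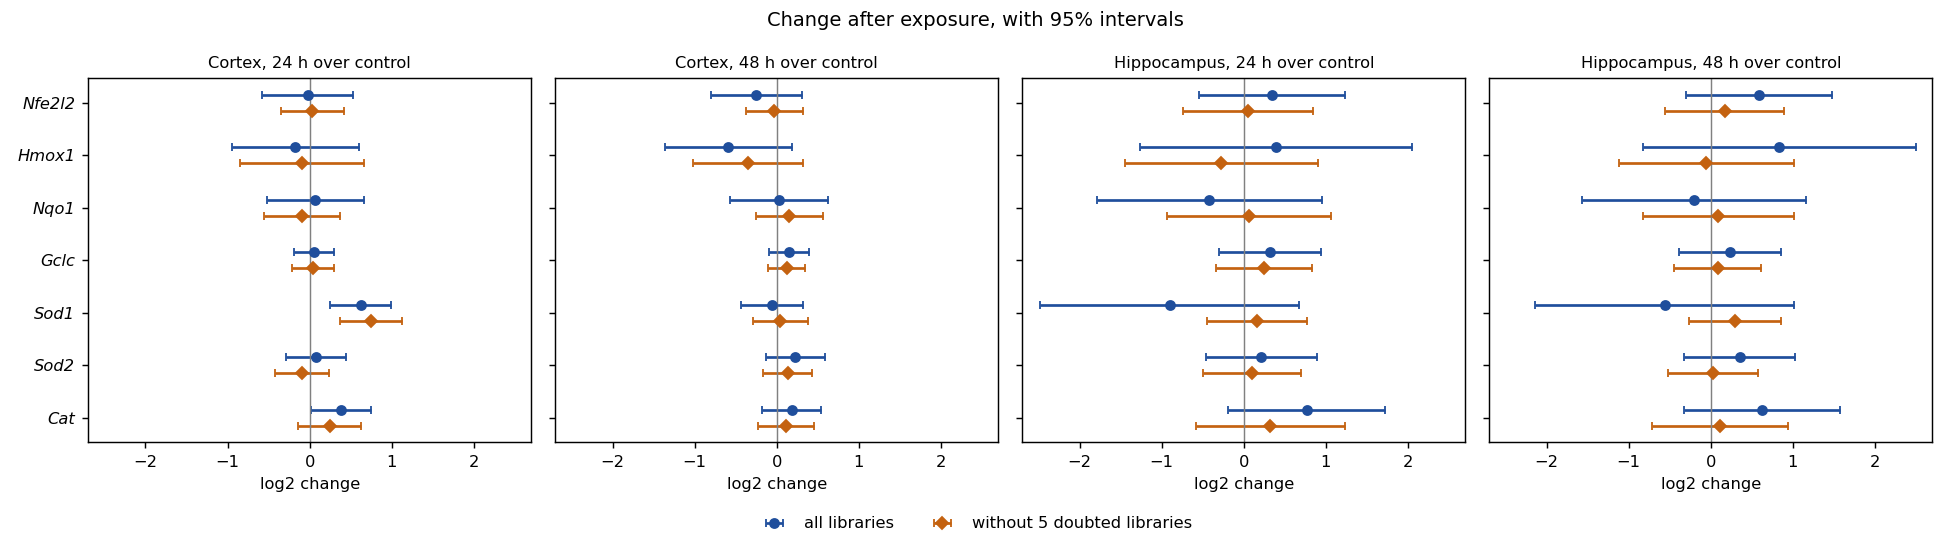
Log2 change over control of each gene (points) with its 95% interval from limma (bars), at 24 h and 48 h in cortex and hippocampus, with all libraries (blue circles) and without the 5 doubted libraries (orange diamonds). Intervals in cortex exclude 0 for Sod1 (0.25 to 1.00) and barely for Cat (0.02 to 0.74) at 24 h with all libraries, and the hippocampus intervals are wider and all include 0.

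In hippocampus, the 7 genes showed no change that passed the test, and the intervals were wide. Cat had the largest positive change at 24 h, with 1044 ± 397 (SD, n = 3) against 644 ± 271 (SD, n = 4) in controls, and Hmox1 the largest at 48 h, with 80.9 ± 10.6 (SD, n = 3) against 61.4 ± 42.5 (SD, n = 4). Without hippocampus control 1 the log2 change of Cat at 24 h was 0.39 in place of 0.76, and that of Hmox1 at 48 h was 0.08 in place of 0.83. In limma 0 of 7 genes passed at 24 h, at 48 h and between 48 h and 24 h, as 0% of 15028 genes did each time, and 0 of 7 had an unadjusted p under 0.05, against 2.13%, 1.6% and 0.166% of all genes. edgeR called 0 of 7 and 0% of all genes, and DESeq2 called 0 of 7, against 0.00907%, 0.0136% and 0.00454% of all genes.

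Sod1 read 11384, 1341, 1171 and 1209.8 in control hippocampus 1 to 4, then 869, 1449.7 and 1217 in 24 h replicates 2, 3 and 4, and 1487, 1876 and 1118 in 48 h replicates 1, 2 and 3. One control thus stood at 9.72 times the lowest control, from 2638 reads, while the other 3 controls lay within the range of the exposed libraries. With all libraries the log2 change was -0.90 (95% interval -2.48 to 0.68) at 24 h and -0.56 (95% interval -2.14 to 1.02) at 48 h over control. Without hippocampus control 1 these were -0.10 and 0.24, and without all doubted libraries 0.16 and 0.30. The direction at 48 h therefore turned on that 1 library, and at 24 h it turned when all the doubted libraries were left out.

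Sod2 read 3237, 2197, 4182 and 4239.9 in control hippocampus, 2877, 4165.5 and 4907 at 24 h, and 3763, 5695 and 3675 at 48 h. Its 2 low values, 2197 and 2877, came from control 2 and 24 h replicate 2, the libraries that lay between the tissues, and the log2 change over control was 0.21 (95% interval -0.46 to 0.89) at 24 h and 0.36 (95% interval -0.32 to 1.03) at 48 h. Cat read 268, 628, 809.8 and 870.1 in controls, 897, 741 and 1494 at 24 h, and 874, 1237 and 686 at 48 h. The 268 of control 1 set it apart, and the log2 change of 0.76 (95% interval -0.19 to 1.72) at 24 h was 0.33 without all doubted libraries. At 48 h the log2 change of Cat was 0.62 (95% interval -0.33 to 1.58), and 0.11 without the doubted libraries.

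Nfe2l2 read 168, 420.1, 478 and 467 in control hippocampus, 376, 345 and 698 at 24 h, and 534, 624 and 453 at 48 h. Apart from the low control 1, the 48 h values overlapped the controls, and the log2 change of 0.58 (95% interval -0.30 to 1.47) at 48 h was 0.17 without the doubted libraries. Hmox1 read 8.63, 62.5, 62.0 and 113 in controls, 43.1, 42.5 and 112 at 24 h, and 75.8, 93.0 and 73.8 at 48 h. The 8.63 of control 1 rested on 2 reads, for which the exact Poisson 95% interval runs from 1.05 to 31.2 normalized counts, counting error alone. The log2 change of Hmox1 was 0.39 (95% interval -1.27 to 2.05) at 24 h and 0.83 (95% interval -0.83 to 2.49) at 48 h over control, and -0.27 and -0.06 without the doubted libraries.

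Nqo1 read 936, 120.4, 213 and 233 in control hippocampus, 157, 164 and 330.4 at 24 h, and 223, 351 and 171 at 48 h. Control 1 was thus the highest hippocampus library for Nqo1 and Sod1, and the lowest for Nfe2l2, Hmox1, Gclc and Cat. The log2 change of Nqo1 was -0.42 (95% interval -1.79 to 0.95) at 24 h and -0.20 (95% interval -1.57 to 1.17) at 48 h over control, against 0.06 and 0.09 without the doubted libraries. Gclc read 363, 729, 673 and 602 in controls, 640.2, 896 and 638 at 24 h, and 603, 617 and 826 at 48 h. Its log2 change over control was 0.32 (95% interval -0.30 to 0.94) at 24 h and 0.24 (95% interval -0.38 to 0.86) at 48 h, with the narrowest intervals of the 7 in this tissue, and without the doubted libraries it was 0.25 and 0.08.

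Whether the response differed between the tissues was tested as an interaction. In limma, edgeR and DESeq2, 0 of 7 genes and 0% of all genes passed at 24 h or at 48 h, and an unadjusted limma p under 0.05 was reached by 0 of 7 at either time, against 3.48% and 1.32% of all genes. Sod1 at 24 h had the smallest p of the 7, with a hippocampus response minus cortex response of -1.53 on the log2 scale (95% interval -3.16 to 0.11, limma adjusted p = 0.856). Without hippocampus control 1 this was -0.72, and without all doubted libraries -0.59 (95% interval -1.26 to 0.08). With library weights and a replicate block together, added after seeing the data, it was -1.26 and passed (limma adjusted p = 0.0234, 9% of all genes called). Hmox1 and Nfe2l2 at 48 h had values of 1.42 (95% interval -0.40 to 3.24) and 0.83 (95% interval -0.20 to 1.86), which were 0.30 and 0.20 without the doubted libraries.

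The tissues themselves were set side by side within each exposure group. Log2 differences of hippocampus over cortex were above 0 for 5 of 7 genes in controls (48.2% of all genes) and 6 of 7 at 24 h (50%). In controls the signs of Nfe2l2, Hmox1 and Gclc changed in 4, 5 and 3 of 24 alternatives. At 24 h those of Hmox1 and Gclc changed in 6 and 1 of 22. At 48 h, where no doubted library is in either group, all 7 log2 differences of hippocampus over cortex were above 0. Their median was 0.71, against 0.02 for all genes, of which 51.5% were above 0. The difference of Gclc was 0.0074 and changed sign in 4 of 22 alternatives, so its direction is not settled. Nfe2l2, Hmox1, Nqo1, Sod1 and Sod2 had 3 hippocampus values above all 3 of cortex, which 20.5% of all genes had. None of the 7 passed in limma at 48 h, where 5.29% of 15017 genes did, nor in controls (2.9%) or at 24 h (1.8%). At an unadjusted p under 0.05 there were 1 of 7 in controls, 1 at 24 h and 2 at 48 h, against 19%, 15.5% and 21% of all genes. edgeR called 0 of 7 in each, against 2.94%, 1.09% and 4.88% of all genes. DESeq2 called 1 of 7 in controls, Sod1, in a group that includes the 11384 of hippocampus control 1, and 0 of 7 at 24 h and 48 h, against 6.45%, 4.39% and 8.37% of all genes.

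Nfe2l2 at 48 h averaged 537 ± 85.4 in hippocampus, against 287 ± 22.9 in cortex (SD, n = 3 each), a log2 difference of 0.89 (95% interval 0.11 to 1.67, limma adjusted p = 0.169). Its NRF2 targets Hmox1 and Nqo1 differed by 0.88 (95% interval -0.49 to 2.26) and 0.70 (95% interval -0.43 to 1.83), and Gclc by 0.0074 (95% interval -0.47 to 0.48). Gclc was thus at 682 ± 125 in hippocampus, against 673 ± 46.9 in cortex (SD, n = 3 each). Sod1 averaged 1493 ± 379 in hippocampus, against 840.2 ± 150 in cortex (SD, n = 3 each), a log2 difference of 0.81 (95% interval -0.42 to 2.05, limma adjusted p = 0.469). Sod2 averaged 4378 ± 1142 in hippocampus, against 2909.8 ± 243 in cortex (SD, n = 3 each), a log2 difference of 0.56 (95% interval 0.0085 to 1.12, limma adjusted p = 0.23), and Cat differed by 0.71 (95% interval -0.05 to 1.47).

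These calls at 48 h depended on which libraries set the spread. With the spread taken from the 48 h libraries alone, Nfe2l2 (limma adjusted p = 0.0128) and Sod1 (limma adjusted p = 0.0457) passed, in a fit that called 18.8% of all genes. Without the doubted libraries Nfe2l2 (limma adjusted p = 0.0124), Sod1 (0.00719) and Sod2 (0.0301) passed, in a fit that called 27.9% of all genes. With library weights, 5 of 7 passed at 48 h (41.1% of all genes), 4 of 7 in controls (25.2%) and 2 of 7 at 24 h (23.2%). The adjusted p of Nfe2l2 at 48 h was 0.142 in edgeR and 0.0886 in DESeq2. The differences were 0.89 for Nfe2l2, 0.81 for Sod1 and 0.56 for Sod2 with all libraries, and 0.87, 0.93 and 0.68 with library weights. With the 48 h libraries alone and without the doubted libraries they equal those with all libraries by construction, because the 48 h group means stay the same. A share of 3 in 7 without the doubted libraries is read against the 13% of all genes called higher in hippocampus in that fit. The 7 genes were chosen with earlier results of these data known.

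A replicate block, which takes libraries with the same number in both tissues as 1 rat, left fewer of these calls, except with library weights at 24 h and 48 h. With all libraries and the block 0 of 7 genes passed at 48 h (limma adjusted p = 0.198 for Nfe2l2, 3.74% of all genes), in controls (0.0133%) or at 24 h (0%). With the block, Nfe2l2 was the gene that passed at 48 h in the 48 h libraries alone (limma adjusted p = 0.026, 13.1% of all genes) and without the doubted libraries (limma adjusted p = 0.0261, 13.2%), while Sod1 had adjusted p-values of 0.0898 and 0.0891 there. Without the doubted libraries and with the block, 0 of 7 passed in controls (0%) and at 24 h (0.0404%), where 1 complete pair was left in each group and its spread was taken from the others. Weights and block together called 6 of 7 at 48 h (30.8% of all genes), 3 of 7 in controls (21.4%) and 5 of 7 at 24 h (60.3%), where Sod1 was lower in hippocampus, with a log2 difference of -0.73. These fits were added after seeing the data, apart from the block with all libraries.

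**Figure D3:**
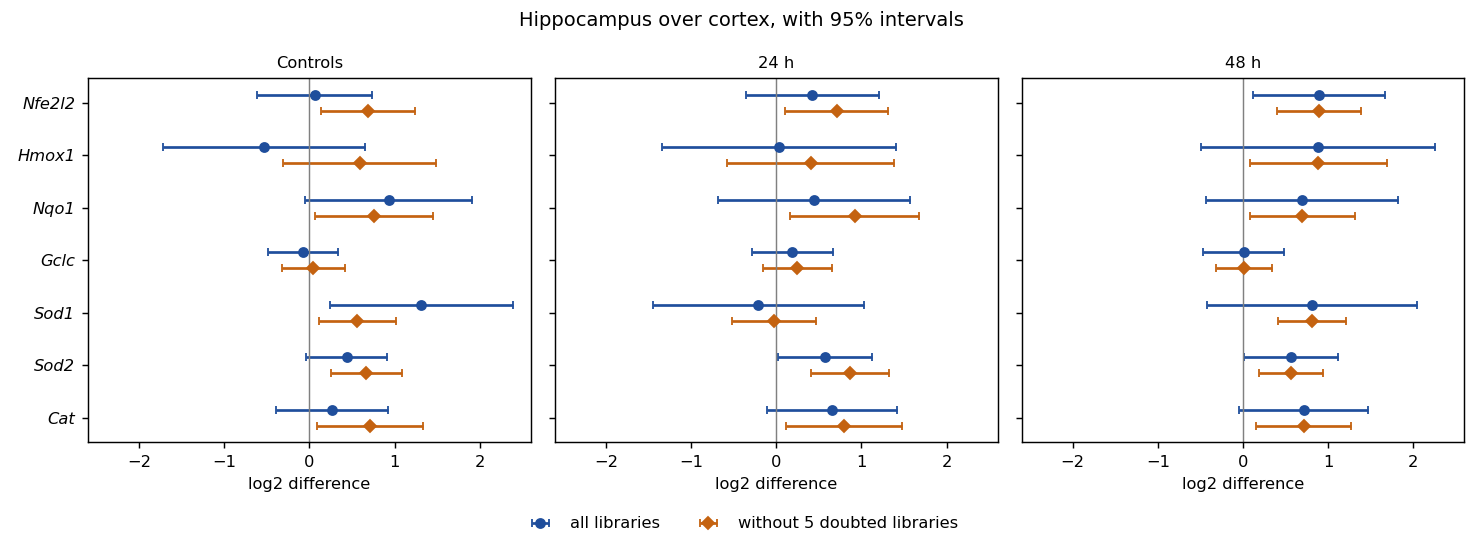
Log2 difference of hippocampus over cortex for each gene (points) with its 95% interval from limma (bars), within controls, at 24 h and at 48 h, with all libraries (blue circles) and without the 5 doubted libraries (orange diamonds). At 48 h all 7 points lie at or above 0, from 0.0074 for Gclc to 0.89 for Nfe2l2, and the intervals narrow when doubted libraries of the other groups no longer add to the spread.

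In controls and at 24 h the tissue differences moved with the doubted libraries. Without these, 2 hippocampus and 3 cortex libraries were left in controls, and 2 of each tissue at 24 h. Between control tissues Sod1 had a log2 difference of 1.32 (95% interval 0.25 to 2.38, limma adjusted p = 0.172), with all 4 hippocampus values above all 4 of cortex (4.26% of all genes), and 0.52 without hippocampus control 1. Nfe2l2 differed by 0.06 with all libraries and by 0.69 (95% interval 0.14 to 1.24) without the doubted ones, Cat by 0.27 and 0.71, and Hmox1 by -0.53 and 0.59. Sod2 in controls differed by 0.43 (95% interval -0.04 to 0.91), and without the doubted libraries by 0.67 (limma adjusted p = 0.0329), in a fit that called 17.1% of all genes. At 24 h Sod2 differed by 0.57 (95% interval 0.02 to 1.12, limma adjusted p = 0.307), and without the doubted libraries by 0.87 (limma adjusted p = 0.0158), where 15.7% of all genes were called.

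Cat at 24 h was the gene without overlap between the tissues, at 897, 741 and 1494 in hippocampus against 549.1, 695 and 668 in cortex, as 15.3% of all genes were higher without overlap (log2 difference 0.65, 95% interval -0.11 to 1.41). Sod1 at 24 h, with 869, 1449.7 and 1217 in hippocampus against 1472, 1290 and 1248 in cortex, was the gene whose point value lay below 0, at a log2 difference of -0.21 (95% interval -1.44 to 1.02). Without the doubted libraries, 5 of 7 genes in controls and 4 of 7 at 24 h lay higher in hippocampus without overlap, against 26.2% and 28.1% of all genes. That compares 2 hippocampus libraries with 3 of cortex in controls and with 2 at 24 h, where lack of overlap is easily reached. The part of the libraries between the tissues in the smaller differences with all libraries was not tested.

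Ranked by group median, Sod1 ran from 48 h hippocampus (1487) through 24 h cortex (1290), control hippocampus (1275) and 24 h hippocampus (1217) to control cortex (856) and 48 h cortex (812). Nfe2l2, Nqo1, Sod2 and Cat had all 3 hippocampus groups above all 3 cortex groups by median. The share of all genes with this order was not computed, so the order is no result about these genes. For Nqo1 the order rests on 164.18 in hippocampus at 24 h against 162.33 in cortex at 48 h. For Nfe2l2 the medians were 534 at 48 h, 443.5 in controls and 376 at 24 h in hippocampus, and 336 at 24 h, 319.8 in controls and 287 at 48 h in cortex. For Sod2 they ran from 4165.5 in hippocampus at 24 h to 2465 in control cortex, and for Cat from 897 in hippocampus at 24 h to 493 in control cortex. Gclc had the flattest order, from 665 in cortex at 48 h to 604 in control cortex. In every gene, each group's range overlapped that of the next group in the order.

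Libraries also differed together across several of the 7 genes. Hippocampus 24 h replicate 4 was the highest of its group for Nfe2l2 (698), Hmox1 (112), Nqo1 (330.4), Sod2 (4907) and Cat (1494), and 48 h replicate 2 the highest of its group for the same 5 genes and for Sod1. These 2 libraries lay at 1.2 and 1.24 on the position scale, the farthest from cortex of all, and the part of position in their values was not tested. Gclc did not follow, at 638 and 617, the lowest and the middle value of their groups. In hippocampus without control 1 (9 libraries that share dissection and scaling), Nfe2l2 correlated with Hmox1 at r = 0.827, with Nqo1 at r = 0.86 and with Gclc at r = -0.598. With Cat, Sod2 and Sod1 it correlated at 0.799, 0.607 and 0.396, all as a description over the libraries of 3 groups. With control 1 included (10 libraries) the sign was reversed for Nqo1 (-0.426), Gclc (0.514) and Sod1 (-0.745). The values for Hmox1, Cat and Sod2 were then 0.952, 0.937 and 0.49. In cortex (10 libraries) Nfe2l2 and Hmox1 correlated at 0.672, and at 0.0231 without the 2 doubted ones (8 libraries). For Nfe2l2 with Nqo1 these values were 0.679 and 0.171, and with Gclc -0.705 and -0.499.

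**Figure D4:**
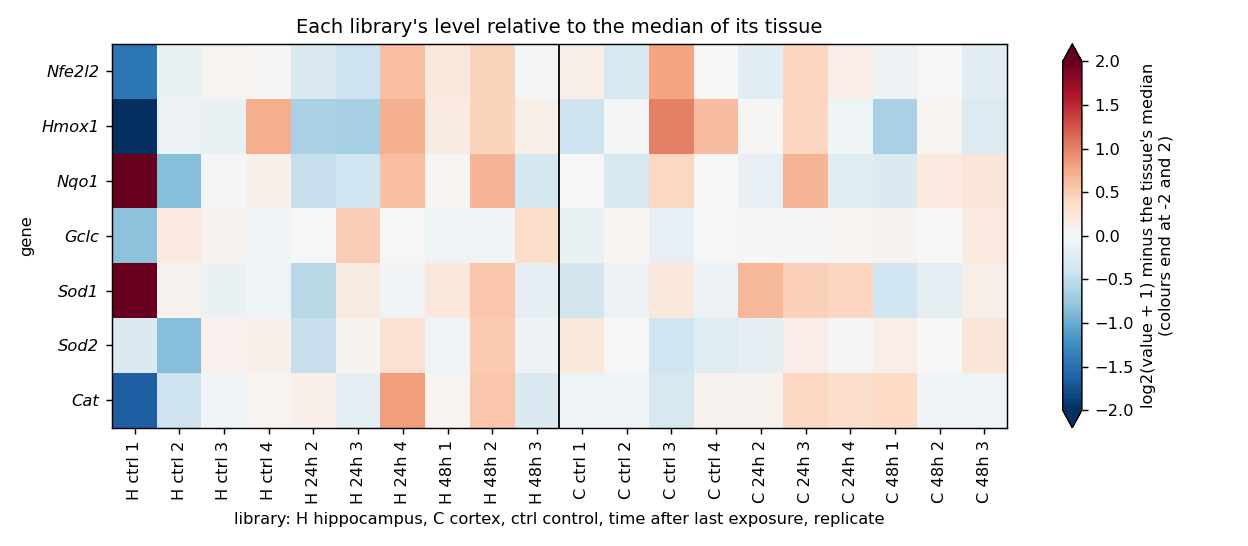
Log2 level of each gene (rows) in each library (columns, hippocampus left of cortex) minus the median of its tissue, with red above and blue below, and colours ending at -2 and 2. Hippocampus control 1 is blue for Nfe2l2, Hmox1, Gclc and Cat and red for Nqo1 and Sod1, hippocampus 24 h replicate 4 and 48 h replicate 2 are red for most genes, and Gclc in cortex is pale throughout.

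Spread within groups set how small a change could be seen. On the log2 scale the pooled SD in hippocampus was 1.1 for Hmox1, 1.09 for Sod1, 0.923 for Nqo1 and 0.358 for Gclc. Those of Hmox1, Sod1 and Nqo1 were larger than in 91%, 90.6% and 85.8% of 12374 genes. Their SD was largest in the controls, which include hippocampus control 1, at 1.55, 1.6 and 1.25. At 24 h and 48 h the SD was 0.788 and 0.18 for Hmox1, 0.375 and 0.374 for Sod1, and 0.598 and 0.522 for Nqo1. In cortex the pooled SD was 0.477 for Hmox1, 0.371 for Nqo1 and 0.357 for Nfe2l2, against a median of 0.283 over genes. It was about 0.2 for Sod1 (0.218), Cat (0.205) and Sod2 (0.203). Hmox1 had the fewest reads, 31 to 180 per library apart from the 2 reads of hippocampus control 1. The gene whose pattern over the 20 libraries, after removing each tissue's mean, was most like that of Nfe2l2 was ENSRNOG00000022507 (Pearson r = 0.956, and 0.912 without hippocampus control 1), out of 12374 genes. For Hmox1 it was ENSRNOG00000006228 (r = 0.929, and 0.81 without that library), and both are descriptions with no test.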

How the data were processed

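Per the labels' protocols, TRIzol RNA of 50 mg tissue went into a stranded mRNA library kit. Per the submitters' processing notes, the software included fastp 0.20.0, HISAT2 2.1.0 and also featureCounts 2.0.1. The build, annotation and strand setting were not given in the sources used here, so reads of an antisense partner cannot be told apart. The authors deposited a signal per gene, read counts divided by 1 factor per library. All values in the 21 columns were whole multiples of 1 read (tolerance 0.001 reads).

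Groups came from sample titles, and 1 library with conflicting tissue labels was left out. The 7 genes and all lists were chosen with earlier results of these data known, and all 7 are named whatever their values. Symbols follow the list that gave the IDs, because the table pairs none. log2(value + 1), computed from the deposited signal, was tested with limma 3.58.1 (R 4.3.3, eBayes with trend, two-sided, Benjamini-Hochberg over all genes with a mean of at least 10, threshold 0.05). Exposure comparisons used the 10 libraries of a tissue, tissue and interaction comparisons all 20. Low genes have their changes understated on this scale. Alternatives were edgeR 4.0.16 (quasi-likelihood) and DESeq2 1.42.0 on the recovered reads, other pseudocounts, filters, scalings and fits, a replicate block and single libraries left out. Library weights, leaving out doubted libraries and their fits with the block were added after seeing the data. The scripts were tested on simulated data. Replicates within a tissue are separate rats per the labels. The Poisson interval covers counting error only.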

Additional observations from a re-analysis of the deposited data

Results flagged for a closer look

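Each of the 7 genes was checked for a library far from the rest in both groups of 4 controls, and 2 of 14 checks found one. Chance gives about 1 in 20 for a single check, but checks within a group share its libraries and are not independent. The share of all genes with such a library was not computed, so the 2 are no result about these genes. In both, the library was hippocampus control 1. Its Sod1 value was 11384, against 1171 to 1341 in the other 3 controls, and its Nqo1 value was 936.46, against 120.4 to 233. The library held 4654096 reads in genes, and its estimated weight was 0.0566. The part of its depth in these values was not tested. Groups of 3 were not checked.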

How the results depend on the processing

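Of 1708 values recomputed under alternatives, 114 changed sign, none of them called before or after, and 37 passed the threshold. Apart from fits with the replicate block, described below, gene counts called were above 0 in the following cases and 0 in the others. The shares of all genes called in these fits are given with the results above. With library weights the number was 1 for cortex 48 h over 24 h, and for hippocampus over cortex 4 in controls, 2 at 24 h and 5 at 48 h. Without the doubted libraries it was 1 in controls, 1 at 24 h and 3 at 48 h for hippocampus over cortex. DESeq2 called 1 for the control tissues, and the fit of the 48 h libraries alone called 2 for the tissues at 48 h. Leaving out single libraries left 0 called in each comparison, 0 to 0. The cause of these shifts was not tested. DESeq2 gave Sod1 no adjusted p for hippocampus at 24 h and 48 h over control.

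Same-numbered libraries of both tissues deviated together (r over 0.1) in 3 of 10 pairs, from -0.29 to 0.136, which does not settle whether a number marks the same rat. With the replicate block and all libraries 0 of 7 genes were called in each of the 11 comparisons, and 2 of all genes between control tissues against 436 without it. In the 6 exposure comparisons the block tied equal replicate numbers across the groups of 1 tissue. Those libraries come from different rats, so there the block is a numbering and no pairing of tissues. For hippocampus over cortex, the block with library weights called 3 in controls, 5 at 24 h and 6 at 48 h, and 1 for the interaction at 24 h. The block called 1 at 48 h both without the doubted libraries and in the 48 h libraries alone. Hippocampus control 1 and the libraries between the tissues moved the hippocampus values, and Hmox1 is limited by its low reads.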

Other observations

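The library titled as hippocampus at 24 h and labelled as cortex in its source entered no comparison. Its normalized read counts were 466 for Nfe2l2, 73.4 for Hmox1, 168 for Nqo1, 727 for Gclc, 966 for Sod1, 3268 for Sod2 and 854 for Cat, from 12787921 reads in genes. Its position between cortex at 0 and hippocampus at 1 was 0.82.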
